A study of Mus musculus with 11 samples.

Results

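The data described here are the RNA levels of 10 mouse genes that encode components of mechanistic target of rapamycin complex 1 (mTORC1) and amino acid transporters of the plasma membrane, out of 48795 genes in the deposited table. The members were given by symbol and found by Ensembl identifier, by a rule that uses no measured value, although they were proposed with earlier results of these data known. The first 5 are Mtor, Rptor, Akt1s1 and Deptor, which encode the kinase and partners in the complex, and Rheb, which encodes its small GTPase activator. The other 5 are the transporter genes Slc7a5, Slc3a2, Slc1a5, Slc38a2 and Slc43a2.

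mTORC1 is a protein kinase complex at the lysosome that drives protein, lipid and nucleotide synthesis when growth factors and amino acids are both present. Growth factor signals reach it through AKT, the TSC complex and RHEB, while amino acids act through the RAG GTPases. In the germinal center (GC), mTORC1 activity and MYC expression are known for accompanying the growth of light zone (LZ) B cells selected with T cell help, and resting memory B cells (MBCs) are small and little active in biosynthesis. Its activity is set mostly on proteins, so that RNA levels give the supply of components and not the activity. The study read that activity by flow cytometry as phosphorylated S6 kinase. It reported similar levels in MYC+ LZ B cells of Myc WT mice and of the Myc mutant described below.

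All cells came from spleens of female mice of 8 to 12 weeks, kept on the C57BL/6 background, 10 d after immunization with sheep red blood cells (SRBC), a T cell-dependent antigen. LZ B cells were sorted as Fas+ CD38neg cells with high CD86 and low CXCR4 from 4 Myc WT mice (numbered 1 to 4) and from 4 Myc V394D mice (5 to 8), and CD38+ CD273+ IgDneg MBCs were sorted from Myc WT mice 1, 3 and 4. Each library held the cells of 1 mouse, and the study asked how LZ B cells change when MYC cannot pair with MIZ1 and which of those genes mark MBCs. Myc V394D is a substitution at the endogenous Myc locus that is present in every cell of the animal. Effects outside B cells may therefore be part of the comparison, and TPM cannot show a substitution. The titles give all Myc V394D mice 1 name prefix, which no Myc WT mouse has (mice 1 to 3 share another and mouse 4 has its own), so genotype and whatever the prefix stands for cannot be told apart.

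Values were TPM, a measure of transcript abundance that corrects for transcript length and has the same sum in every library, so that levels can be compared between genes. The sequencing depth is not known from such values. Ribosomal RNA took 35.7 to 44.5% of TPM in the Myc WT LZ libraries, 44.1 to 61.3% in the Myc V394D LZ libraries and 36.1 to 37.5% in the MBC libraries. Genes above 0 numbered 15460 to 19537, 13169 to 16421 and 11527 to 16040 in the same order. All 9 GC marker genes tested, among them Fas and Cd86 of the sort, were below their Myc WT LZ range in every MBC library, and 6 of the 9 passed the adjusted threshold in limma, neither Fas nor Cd86 among them. Of 7 memory B cell genes, 5 were higher in MBCs past the adjusted threshold (Ccr6, Hhex, Cd80, and Cd38 and Pdcd1lg2, the genes of the sort markers CD38 and CD273), while Nt5e and Zbtb32 overlapped between the groups with log2 differences of -0.31 and -0.11. Naive follicular B cell genes were also higher in MBCs, with 5 of 6 past the adjusted threshold. Erythroid marker genes summed to 4769 TPM in the MBC library of mouse 3 and to 6.21 and 37.4 TPM in those of mice 1 and 4. In LZ B cells they summed to 312, 347, 316 and 65.1 TPM in Myc V394D mice 5 to 8 and to 105 to 211 TPM in Myc WT mice. Of the 6 erythroid genes, 5 had differences above 0 in Myc V394D and 2 an unadjusted p under 0.05 in limma, with a median of 0.98 and 0 past the adjusted threshold. Memory B cell genes summed to 16.8 to 35.9 TPM in Myc V394D LZ and to 40.7 to 56.3 TPM in Myc WT LZ libraries. Plasma cell genes summed to 134 to 221 TPM and to 229 to 381 TPM in the same order. The sums of the other marker lists overlapped between the genotypes. The part of erythroid, memory B cell or plasma cell RNA in the Myc V394D differences below was not tested. Myeloid marker genes summed to 184 TPM in the MBC library of mouse 4, to 36.4 and 59.6 TPM in those of mice 1 and 3, and to 7.69 to 18.7 TPM in Myc WT LZ B cells. Of the 5 myeloid genes tested, 2 passed the adjusted threshold in limma, both higher in MBCs, beside 9.2% of all genes. Without overlap, 3 were higher in MBCs, beside 11.8% of all genes. The 7 T cell marker genes were all listed at 0 in the MBC library of mouse 3, all but Lck (26.1 TPM) at 0 in that of mouse 1, and all above 0 in that of mouse 4, with Trac at 17.65 TPM and Cd3e at 5.37 TPM. Their sum there, 48.9 TPM, lay within the Myc WT LZ range of 33.1 to 68.5 TPM.

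The order of the levels was alike at its top in all groups. Slc1a5 had the highest mean in each, with 67.6 ± 13.6 TPM in Myc WT LZ (SD, n = 4), 56.1 ± 13.3 TPM in Myc V394D LZ (SD, n = 4) and 67.4 ± 16.3 TPM in Myc WT MBCs (SD, n = 3). Slc38a2 and then Slc3a2 followed in every group, and the ranges of neighbours among these 3 overlapped. In Myc WT LZ B cells Rheb followed at 35.7 ± 3.67 TPM (SD, n = 4), above Mtor in 4 of 4 libraries, and Mtor, Slc7a5, Slc43a2 and Rptor came next, each with a range that overlapped that of its neighbour. Akt1s1 was below Rptor in 4 of 4 Myc WT LZ libraries. In MBCs Slc7a5 had the lowest mean apart from Deptor, while the ranges of all other neighbours overlapped.

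**Figure D1:**
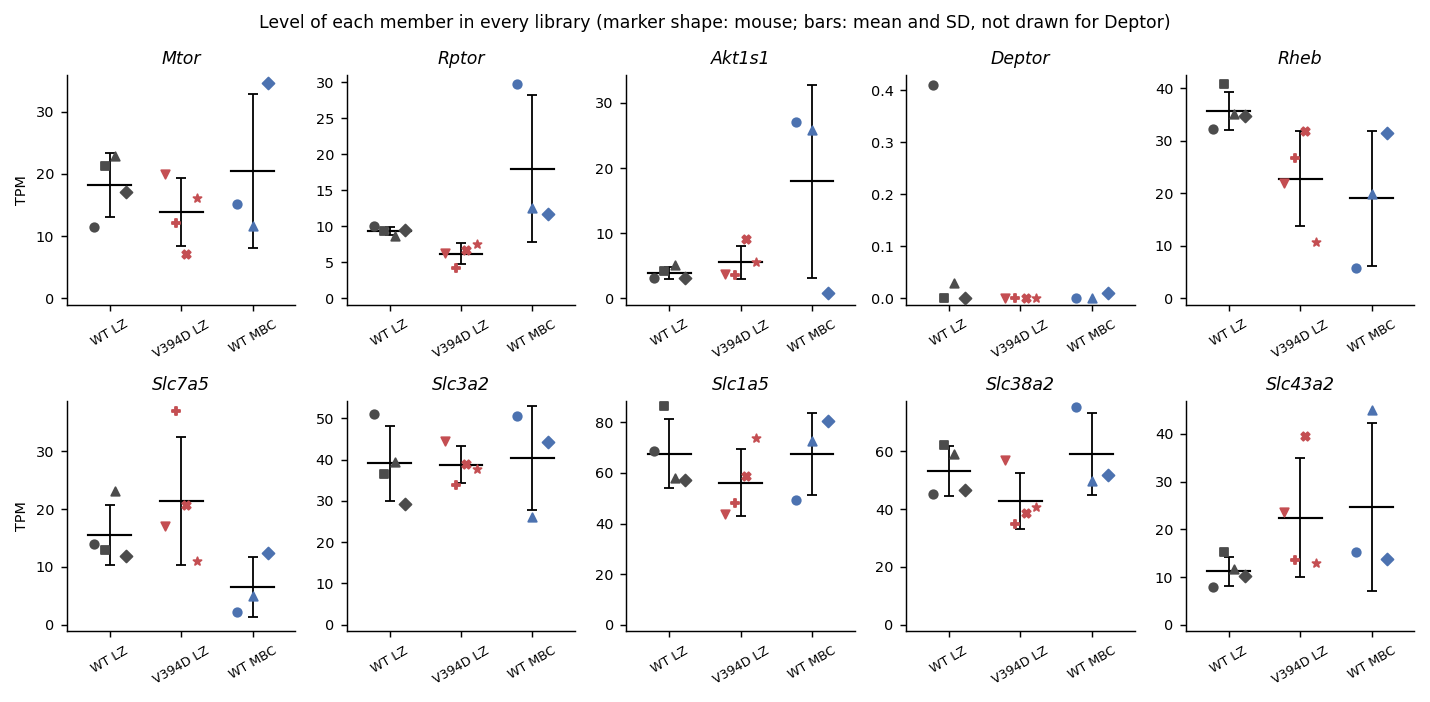
TPM (linear axis) of the 10 members in the 4 Myc WT LZ, 4 Myc V394D LZ and 3 Myc WT MBC libraries. Each point is 1 library with its shape giving the mouse, and black bars give the mean and SD except for Deptor. The Rptor points of the 3 groups do not overlap, the Rheb points of Myc WT LZ lie above all others, and the mean of Slc7a5 is lowest in MBCs, with the point of mouse 4 inside the LZ range.

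With limma on log2(TPM + 1), 0 of the 9 members tested passed an adjusted p of 0.05 between Myc V394D and Myc WT LZ B cells, where 0.0466% of 12869 genes passed (1 higher and 5 lower). Deptor was below the filter of a mean of 1 TPM and was not tested. Without adjustment, 2 of the 9 members had a p under 0.05, Slc43a2 (higher) and Rheb (lower), beside 16.9% of all genes (160 higher and 2020 lower). The median difference over all genes was -0.31 in log2(TPM + 1), and that over the 9 members was -0.27. Between MBCs and Myc WT LZ B cells, 0 of 9 members passed and 1 had an unadjusted p under 0.05 (Slc7a5), where 9.2% of 13245 genes passed (552 higher and 667 lower) and 27.1% had an unadjusted p under 0.05. The median was 0.06 over the 9 members and -0.14 over all genes. Both comparisons use the same Myc WT LZ libraries, so a high or low value there moves both.

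**Figure D2:**
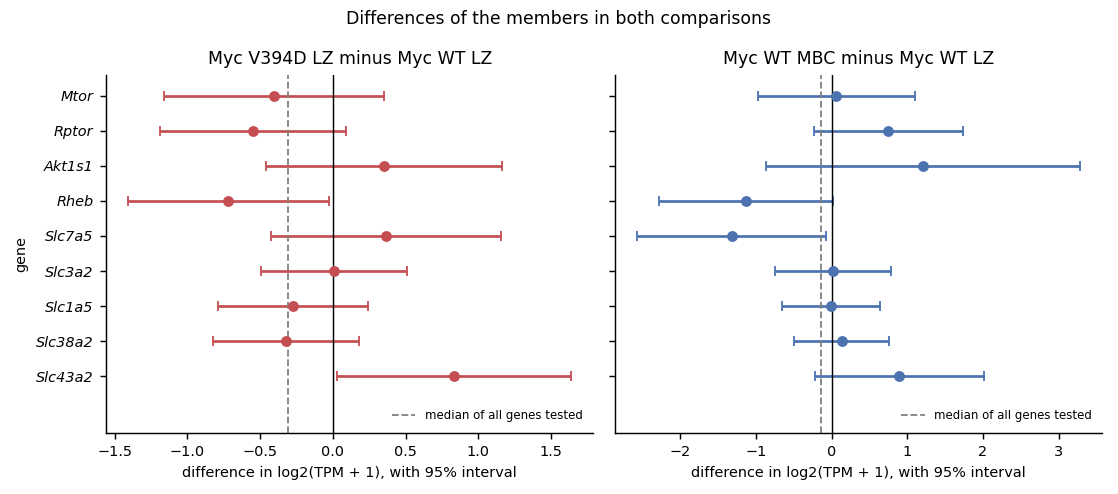
Difference in log2(TPM + 1) of the 9 tested members between Myc V394D and Myc WT LZ B cells (left) and between Myc WT MBCs and Myc WT LZ B cells (right), with 95% intervals from limma. The dashed lines mark the median of all genes, -0.31 and -0.14. The intervals of Rheb and Slc43a2 on the left and of Slc7a5 on the right leave out 0, and none of these passed the adjusted threshold.

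Rptor (chr11:119602905-119899576, plus strand) encodes RAPTOR, the scaffold that brings substrates to the kinase. Its level was 10.1, 9.32, 8.63 and 9.51 TPM in Myc WT LZ mice 1 to 4 and 6.34, 4.20, 6.68 and 7.60 TPM in Myc V394D mice 5 to 8. It was 29.8, 12.5 and 11.7 TPM in the MBCs of mice 1, 3 and 4. Every Myc V394D library was thus below every Myc WT LZ library, and every MBC library above, although the MBC of mouse 1 stood far from the other two. The log2 difference was -0.55 (SE 0.29) in Myc V394D, with an exact permutation p = 0.0286, the smallest that 4 against 4 libraries can give, and an adjusted p = 0.365 from limma. In MBCs it was 0.75 (SE 0.43), with an exact permutation p = 0.0286, again the smallest possible, and an adjusted p = 0.304 from limma. That permutation, like those of the other members in MBCs, treats all 7 libraries as separate although 3 mice gave both kinds of cell, and over 3 pairs an exact test cannot give a p below 0.25. With the mouse as a block and the unpaired Myc WT LZ library of mouse 2 left out, limma gave Rptor an adjusted p = 0.623, Rheb 0.421 and Slc7a5 0.422. Without the MBC library of mouse 1 the difference of Rptor was 0.34. Within the mice, Rptor was higher in MBCs in 3 of 3, by 1.47, 0.49 and 0.27 on the log2 scale in mice 1, 3 and 4.

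Rheb (chr5:24802823-24842624, minus strand) encodes the GTPase that the TSC complex holds inactive and that, when bound to GTP, turns on the kinase. It was 32.1, 40.8, 35.04 and 34.7 TPM in Myc WT LZ B cells and 21.99, 26.8, 31.8 and 10.7 TPM in Myc V394D LZ B cells. In MBCs of mice 1, 3 and 4 it was 5.86, 19.9 and 31.5 TPM. The Myc WT LZ range lay above both other groups, but only by a small margin, since Myc V394D mouse 7 and the MBCs of mouse 4 came within 1 TPM of the lowest Myc WT LZ library. The log2 difference was -0.72 (SE 0.31) in Myc V394D (exact permutation p = 0.0286, adjusted p = 0.277 from limma). It was -1.13 (SE 0.51) in MBCs (exact permutation p = 0.0286, adjusted p = 0.19 from limma), and MBCs were lower in 3 of 3 mice, by -2.27, -0.79 and -0.14. With single libraries left out, the MBC difference of Rheb ranged from -1.61 (without the MBCs of mouse 4) to -0.49 (without the MBCs of mouse 1), and the Myc V394D difference was -0.41 without mouse 8.

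These 2 members without overlap in Myc V394D, both lower, stand beside 9.16% of all tested genes that were lower without overlap and 0.816% that were higher. In MBCs 1 member was higher without overlap (Rptor), as were 11.8% of all genes, and 1 was lower (Rheb), as were 14.4%. After rescaling by the median ratio, or with ribosomal RNA, mitochondrial and immunoglobulin genes left out, neither Rptor nor Rheb was separate between the genotypes. Their log2 differences in Myc V394D were then -0.25 and -0.39 by the median ratio, and -0.26 and -0.39 with those genes left out. In both of these scalings it was Slc43a2 that was higher in every Myc V394D library than in any Myc WT LZ library, as were 3.66% and 3.38% of all genes. In MBCs, Rheb stayed below the Myc WT LZ range in both scalings, joined by Slc7a5, as were 16.3% of all genes by the median ratio and 15.7% with those genes left out. Rptor stayed above that range with those genes left out, as did 11.1% of all genes, but not by the median ratio (12.2% of all genes).

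**Figure D3:**
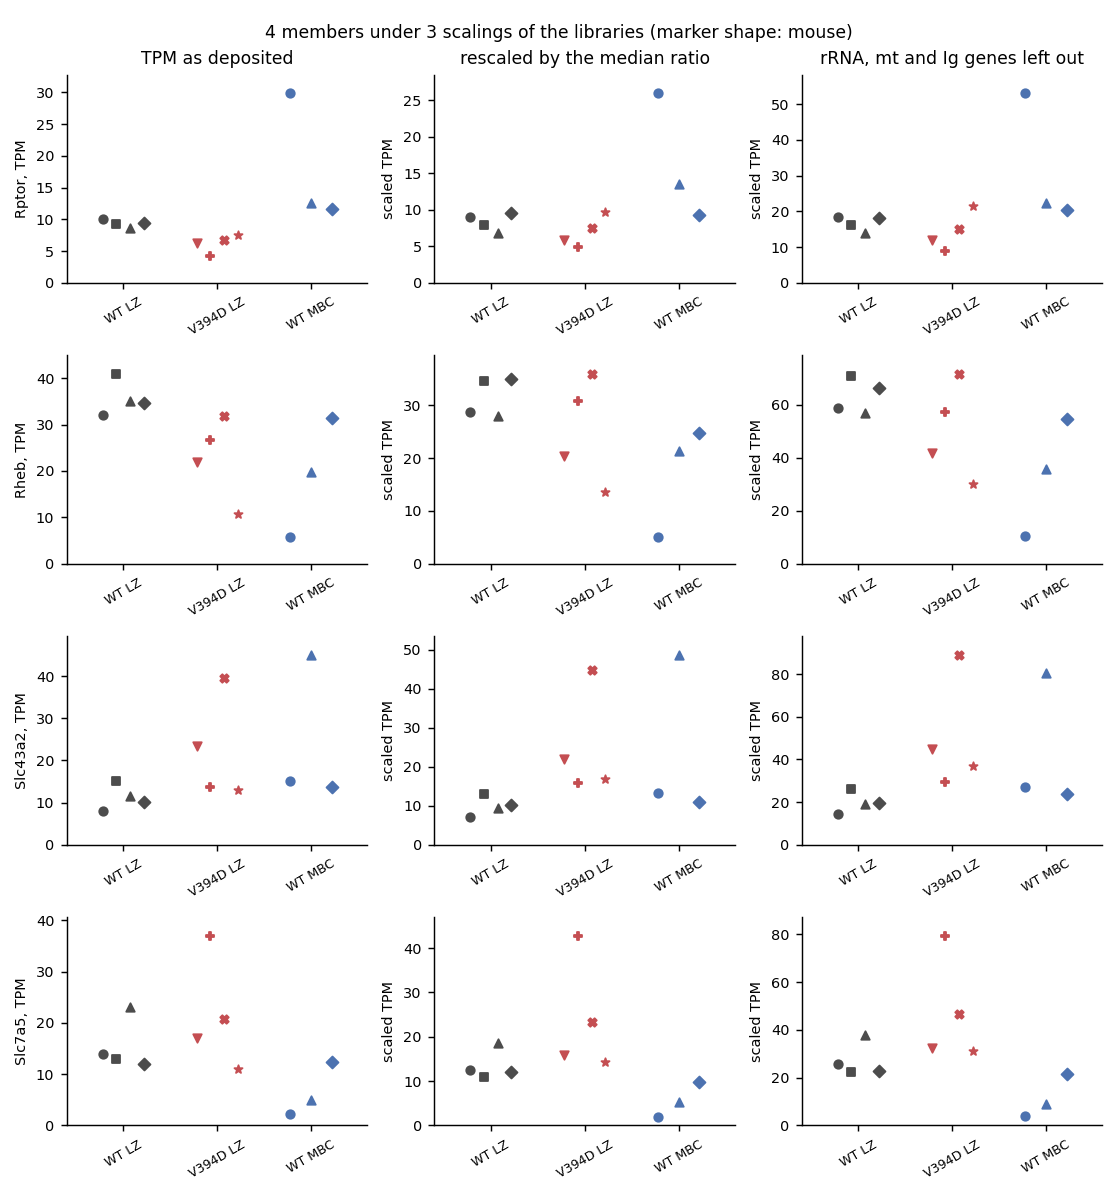
Levels of Rptor, Rheb, Slc43a2 and Slc7a5 (rows) in each library as deposited TPM, after rescaling by the median ratio, and with ribosomal RNA, mitochondrial (mt) and immunoglobulin (Ig) genes left out (columns), on linear axes from 0. Each point is 1 library with its shape giving the mouse. The separation of Rptor and Rheb between the genotypes is seen in the left column alone, and that of Slc43a2 in the other 2 columns alone.

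MYC binds DNA with its partner MAX at E-boxes, most strongly at CACGTG, so the windows upstream of the members were searched for these letters. The study describes the V394D substitution as leaving the binding of MYC to MAX in place. RefSeq windows (GRCm38.p6, 250 bases before and 50 after a start site) were found for 7 of the 10 members, 8 windows in all since Slc43a2 has 2 of them. CACGTG reads the same on both strands and was held by 1 of these windows, that of Rheb, and by 7.15% of all 32851 windows. The stretch around it lies on the minus strand at chr5:24842440-24842469, with the first base of the motif 96 bases before the RefSeq start site, inside the untranslated part of the first exon of a longer GENCODE transcript of Rheb. It is shown with the motif in capitals, beside the 250 bases before the start of Rptor (plus strand, chr11:119602655-119602904), the other member whose Myc V394D and Myc WT LZ values did not overlap, which hold no such motif.
Rheb: gccgcgcgcggtCACGTGggtgtgttgttg
Rptor: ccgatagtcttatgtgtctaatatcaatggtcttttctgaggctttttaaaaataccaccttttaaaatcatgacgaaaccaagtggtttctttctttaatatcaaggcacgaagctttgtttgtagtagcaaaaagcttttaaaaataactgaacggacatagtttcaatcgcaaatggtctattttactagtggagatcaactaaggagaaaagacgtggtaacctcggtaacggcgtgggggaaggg
The Rheb window was rich in G and C (68.0% of its upstream 250 bases) and that of Rptor was not (37.6%), with a median of 52.4% over all windows. TGATGNAA, the letters of the amino acid response element bound by ATF4, were searched on both strands and were in 0 of the 8 windows of members and in 3.97% of all windows. No occupancy was measured in the data used here, and the letters alone do not show whether a factor binds. The study sequenced DNA bound by MYC and by MIZ1 (ChIP-seq) in cultured mouse B cells, which was not used here.

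Mtor, the gene of the kinase (chr4:148448611-148557683, plus strand), overlapped between all groups. It was 11.5, 21.3, 22.9 and 17.0 TPM in Myc WT LZ, 20.0, 12.2, 7.21 and 16.2 TPM in Myc V394D LZ and 15.1, 11.7 and 34.6 TPM in MBCs. The MBC library of mouse 4 was the highest of all 11. The log2 difference was -0.41 in Myc V394D (95% interval -1.16 to 0.35) and 0.06 in MBCs (-0.98 to 1.09), so that the MBC interval is too wide to tell a rise from a fall. Without the MBC library of mouse 4 the MBC difference was -0.38. The Myc V394D difference was -0.09 by the median ratio and -0.08 with ribosomal RNA, mitochondrial and immunoglobulin genes left out. With single libraries left out, it ranged from -0.60 to -0.15.

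Akt1s1 (chr7:44848991-44855421, plus strand) encodes PRAS40, an AKT substrate that inhibits mTORC1 until it is phosphorylated. It was among the lowest members in LZ B cells, with 3.21, 4.19, 5.15 and 3.16 TPM in Myc WT and 3.81, 3.59, 9.11 and 5.61 TPM in Myc V394D. The MBCs of mice 1 and 3 held 27.1 and 25.9 TPM and those of mouse 4 held 0.87 TPM, the highest and lowest values of the 11 libraries. The log2 difference was 0.35 in Myc V394D (SE 0.37, exact permutation p = 0.286, adjusted p = 0.651 from limma). It was 0.63 by the median ratio and 0.70 with ribosomal RNA, mitochondrial and immunoglobulin genes left out. With single libraries left out, it ranged from 0.11 (without mouse 7) to 0.49. The study names Akt1s1 among genes it chose as higher in Myc V394D LZ B cells in its own RNA sequencing, so that this direction is not independent evidence, although the libraries behind that choice may not be exactly these 8. In MBCs the difference was 1.21 (SE 0.92, exact permutation p = 0.314, adjusted p = 0.434 from limma), and within the mice it was 2.74 and 2.13 in mice 1 and 3 and -1.15 in mouse 4. Without the MBC library of mouse 4, the difference was 2.499 with an adjusted p = 0.00699 from limma, where 21% of all genes passed, and without that of mouse 1 or mouse 3 it was 0.54 or 0.58. The part of myeloid RNA in these MBC values, and of T cell RNA in those of mouse 4, was not tested, nor in the values of Mtor and Slc7a5. Tbc1d17 overlaps Akt1s1 on the other strand, as Rptoros and Gm11761 do Rptor, Gm20388 does Slc7a5 and Gm45606 does Slc43a2, and by the study's methods reads were assigned by strand.

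Deptor (chr15:55112317-55259271, plus strand), an inhibitor of the kinase, was listed at 0 in all 4 Myc V394D LZ libraries. It was also at 0 in Myc WT LZ mice 2 and 4, at 0.41 and 0.03 TPM in mice 1 and 3, and in MBCs at 0, 0 and 0.01 TPM. With no filter, limma tested Deptor in both comparisons, and it did not pass in either. Such values are too near 0 to read a difference between groups from them.

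Slc7a5 (chr8:121881150-121907694, minus strand) encodes LAT1, the chain that carries leucine and other large neutral amino acids. It was 14.0, 13.0, 23.2 and 11.9 TPM in Myc WT LZ, 17.0, 37.0, 20.7 and 11.1 TPM in Myc V394D LZ and 2.27, 4.98 and 12.4 TPM in MBCs. The MBCs of mice 1 and 3 were below all LZ libraries, while those of mouse 4 lay within the LZ range. The log2 difference in MBCs was -1.32 (SE 0.55, 95% interval -2.57 to -0.08, exact permutation p = 0.0571, adjusted p = 0.162 from limma). Within the mice it was -2.19 and -2.02 in mice 1 and 3 and 0.05 in mouse 4. Without the MBC library of mouse 4, it was -1.85 with an adjusted p = 0.0306 from limma, and without that of mouse 1 it was -0.84. In Myc V394D the difference was 0.37 (SE 0.36, exact permutation p = 0.4, adjusted p = 0.629 from limma), and the genotypes overlapped. It was 0.68 by the median ratio and 0.71 with ribosomal RNA, mitochondrial and immunoglobulin genes left out. With single libraries left out, it ranged from 0.07 (without mouse 6) to 0.62.

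Slc3a2 (chr19:8706882-8723369, minus strand) encodes CD98 heavy chain, the glycoprotein that LAT1 needs to reach the cell surface and that other light chains share. Its means were 39.1 ± 9.04 TPM in Myc WT LZ (SD, n = 4), 38.7 ± 4.42 TPM in Myc V394D LZ (SD, n = 4) and 40.3 ± 12.6 TPM in MBCs (SD, n = 3). All groups overlapped, and the log2 differences were 0.01 (95% interval -0.50 to 0.51) and 0.02 (-0.75 to 0.78). The first, in Myc V394D, was 0.34 by the median ratio and 0.35 with ribosomal RNA, mitochondrial and immunoglobulin genes left out. The ratio of Slc3a2 to Slc7a5 within a library, which does not move with the scaling apart from the pseudocount, was 3.65, 2.82, 1.70 and 2.45 in Myc WT LZ and 2.61, 0.912, 1.88 and 3.401 in Myc V394D LZ. In the MBCs of mice 1, 3 and 4 it was 22.2, 5.26 and 3.58, so that the heavy chain exceeded the light chain most in the MBCs of mouse 1 and the MBCs of mouse 4 overlapped with LZ. The mean log2 ratio in MBCs was higher by 1.34 than in Myc WT LZ (exact permutation p = 0.0571, two-sided, over 35 groupings). In Myc V394D the log2 ratio differed by -0.36 (exact permutation p = 0.514, over 70 groupings).

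Inhibitor against kinase, the ratio of Akt1s1 to Mtor was 0.279, 0.196, 0.225 and 0.186 in Myc WT LZ and 0.190, 0.295, 1.26 and 0.347 in Myc V394D LZ. In MBCs it was 1.80, 2.22 and 0.0252, so that 2 of 3 MBC libraries were above and 1 below every LZ library of Myc WT mice. The mean log2 ratio was higher by 0.76 in Myc V394D (exact permutation p = 0.171) and by 1.15 in MBCs (exact permutation p = 0.314). Without Myc V394D mouse 5, which had the lowest log2 ratio of the 8 LZ libraries, the difference in Myc V394D was 1.07 (exact permutation p = 0.0286, the smallest that 3 against 4 libraries can give). Without Myc V394D mouse 7, which had the highest log2 ratio, the difference was 0.26 (exact permutation p = 0.286). Over the 8 libraries left out in turn, p was 0.0286 to 0.371 by the same test. These 2 ratios were each compared in both settings, 4 tests in all, and none of these 4 had an unadjusted p under 0.05 with all libraries in.

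**Figure D4:**
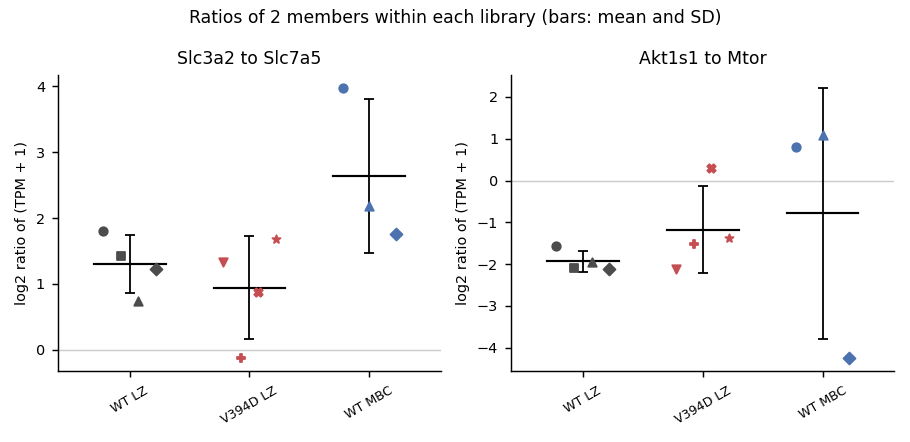
Log2 ratio of (TPM + 1) of Slc3a2 to Slc7a5 (left) and of Akt1s1 to Mtor (right) in each library, with the mean and SD of each group and the shape giving the mouse. On the left the MBC of mouse 1 stands highest at 3.98. On the right the MBCs of mice 1 and 3 lie above 0 and those of mouse 4 at -4.25.

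Slc43a2 (chr11:75531694-75577575, plus strand) encodes LAT4, which lets large neutral amino acids pass down their gradient. It was 7.96, 15.2, 11.6 and 10.2 TPM in Myc WT LZ and 23.6, 13.7, 39.6 and 13.0 TPM in Myc V394D LZ, with mice 5 and 7 above the Myc WT range and mice 6 and 8 inside it. In MBCs it was 15.2, 45.0 and 13.75 TPM, and the highest value was in the library of mouse 3, in which erythroid RNA was high. The part of that RNA in the value was not tested. The log2 difference was 0.83 in Myc V394D (SE 0.37, exact permutation p = 0.0857, adjusted p = 0.281 from limma), above that of 97.0% of all genes. The study chose a set of genes as bound at their promoters by MIZ1 and MYC and as higher in Myc V394D in its own RNA sequencing. For any gene in that set, a higher level here is not independent evidence. The sums of erythroid marker genes were high in mice 5, 6 and 7, and Slc43a2 was high in mice 5 and 7 of these. In MBCs the difference was 0.89 (SE 0.49, exact permutation p = 0.114, adjusted p = 0.28 from limma), and MBCs were higher in 3 of 3 mice, by 0.85, 1.86 and 0.40. Without the MBC library of mouse 3 it was 0.37, and without Myc V394D mouse 7 the Myc V394D difference was 0.52.

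Slc1a5 (chr7:16781340-16798274, plus strand) encodes ASCT2 and Slc38a2 (chr15:96687392-96699730, minus strand) encodes SNAT2, both carriers of glutamine and other small neutral amino acids. Slc1a5 ranged from 57.3 to 86.3 TPM in Myc WT LZ, from 43.9 to 73.7 TPM in Myc V394D LZ and from 49.2 to 80.6 TPM in MBCs. Its log2 differences were -0.27 (95% interval -0.79 to 0.24) and -0.01 (-0.66 to 0.63). Slc38a2 ranged from 45.0 to 62.2 TPM, from 34.7 to 56.8 TPM and from 49.7 to 75.3 TPM in the same order, with log2 differences of -0.32 (-0.82 to 0.18) and 0.13 (-0.50 to 0.76). All groups of both genes overlapped, and the Myc V394D differences of both were close to the median of all genes and were between 0.00893 and 0.0729 under both other scalings.

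The rest of the pathway was followed in 109 other genes in 7 lists. Of these, 86 were tested in each comparison. In Myc V394D, limma gave an adjusted p under 0.05 to 0 of 86, and 10 had an unadjusted p under 0.05, all lower, beside 15.7% of all genes that were lower at that threshold. The median of the 86 was -0.32, close to that of all genes. By list, the median ranged from -0.45 for the 26 genes of lysosomal amino acid sensing to -0.02 for the 3 genes of mTORC2. The 3 genes with the lowest p had negative differences and did not pass: Psat1, an enzyme of serine synthesis, and Lamtor5 and Lamtor1, subunits of the Ragulator complex that anchors the RAG GTPases at the lysosome. Psat1 was 84.2 to 122 TPM in Myc WT LZ and 43.8 to 75.4 TPM in Myc V394D LZ (log2 difference -0.74, SE 0.22, adjusted p = 0.153 from limma). Lamtor5 was 30.5 to 44.1 and 3.48 to 29.5 TPM (-1.44, SE 0.48, adjusted p = 0.178 from limma). Lamtor1 was 26.0 to 36.7 and 12.9 to 25.0 TPM (-0.77, SE 0.26, adjusted p = 0.191 from limma). As deposited TPM, none of these 3 genes overlapped between the genotypes, and 7 of the 86 were lower without overlap, beside 9.16% of all genes. Whether they stay separate under both other scalings was not examined. The median of the pathway genes there was -0.02 in each. With single libraries left out, the differences of Psat1, Lamtor5 and Lamtor1 were -0.86 to -0.60, -1.81 to -0.88 and -0.89 to -0.59.

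In MBCs, the adjusted p of 5 of 86 pathway genes was under 0.05, 2 higher and 3 lower, where 9.2% of all genes passed. Both that rose belong to the PI3K and AKT list. Akt2 rose from 18.8 ± 3.44 TPM in Myc WT LZ (SD, n = 4) to 73.8 ± 44.6 TPM in MBCs (SD, n = 3), with 38.9, 124 and 58.5 TPM in mice 1, 3 and 4 and a log2 difference of 1.77 (SE 0.42, adjusted p = 0.0331 from limma). Pik3r1, which encodes a regulatory subunit of PI3K, rose from 35.2 ± 2.94 TPM (SD, n = 4) to 85.0 ± 18.4 TPM (SD, n = 3), by 1.23 on the log2 scale (SE 0.26, adjusted p = 0.024 from limma). All 3 MBC libraries of both genes were above the Myc WT LZ range.

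The 3 genes that fell were Atf4, Srebf1 and Rraga. Atf4, the transcription factor of the amino acid response, was 83.5, 88.4, 91.1 and 60.7 TPM in Myc WT LZ and 17.1, 9.90 and 40.9 TPM in MBCs (log2 difference -2.001, SE 0.45, adjusted p = 0.0282 from limma). Srebf1, a factor of lipid synthesis whose processing depends on mTORC1, was 21.9, 34.0, 27.6 and 28.2 TPM in Myc WT LZ and 13.2, 2.19 and 4.20 TPM in MBCs (-2.21, SE 0.53, adjusted p = 0.035 from limma). Rraga, which encodes RAGA, was 47.2, 62.5, 78.5 and 60.3 TPM in Myc WT LZ and 28.5, 15.1 and 30.1 TPM in MBCs (-1.34, SE 0.34, adjusted p = 0.0424 from limma). In all 5 genes the direction was the same in 3 of 3 mice. With the mouse as a block, which also leaves out the unpaired Myc WT LZ library of mouse 2, 0 of 86 passed (12 had an unadjusted p under 0.05) and 248 of all genes passed. Without that library and with no block, 0 of 86 and 342 of all genes passed, so that most of the fall from 1219 came with the library and not with the block. Leaving out Myc WT LZ replicate 1, 2, 3 or 4 gave 0 of the pathway genes, with 342 to 519 of all genes passing. Without the MBC library of mouse 3, 9 passed beside 12.7% of all genes, and without that of mouse 4, 20 passed beside 21% of all genes, both close to the share of all genes.

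The list of the ATF4 amino acid response had the lowest median of the 7 in MBCs, at -1.25 over 12 tested genes, of which 10 were below 0 and 5 were below the Myc WT LZ range in every MBC library. Over all genes, 55.3% were below 0 and 14.4% were below that range in every MBC library. The ATF4 list genes without overlap, named after their values were seen, were Atf4 itself, Asns, Psat1, Psph and Mthfd2, enzymes of asparagine, serine and one-carbon metabolism. Only Atf4 of them passed, and the others had adjusted p from 0.0667 to 0.111 in limma. Of 7 dark zone and cell division genes, 5 were lower past the adjusted threshold in the same limma fit (among them Ccnb1, Cdc20 and Plk1) and Foxp1 was higher, with a median of -2.34 over the 7, and the part of cell division in the ATF4 list's values was not tested. The PI3K, AKT and TSC list had the highest median, at 0.61 over 11 genes. The other mTORC1 subunit and assembly genes were all below 0 in both comparisons, with medians of -0.41 and -0.70 over 4 genes, where 73.7% and 55.3% of all genes were below 0. The other amino acid transporters had medians of -0.32 and -0.35 over 14 tested of 27 listed, and 0 passed in either comparison. Lysosomal amino acid sensing, the substrates and effectors, and mTORC2 had medians of -0.52 over 26, 0.01 over 15 and 0.49 over 4 genes in MBCs. In such bulk samples, a lower share of cells that express a gene and less RNA in each cell cannot be told apart.

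**Figure D5:**
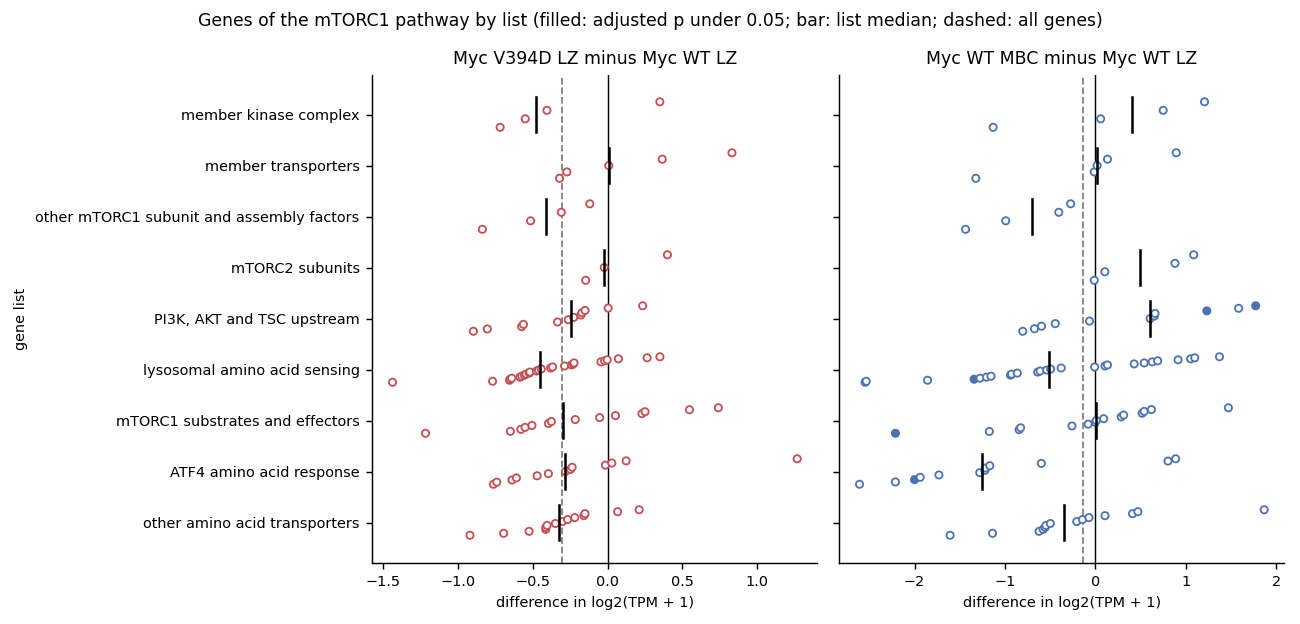
Difference in log2(TPM + 1) of each tested gene by list, in Myc V394D against Myc WT LZ B cells (left) and MBCs against Myc WT LZ B cells (right). Filled points passed an adjusted p of 0.05, black bars give the list medians and dashed lines the median of all genes. On the left no point is filled and the list medians lie between -0.48 and 0.01. On the right 5 points are filled and the ATF4 amino acid response has the lowest median.

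By the distance between centred log2(TPM + 1) profiles over the 11 libraries, the genes most like Slc7a5 among 9222 with a mean of at least 5 TPM were Hars (histidyl-tRNA synthetase, root mean square distance 0.34), Cog8 (a Golgi tethering subunit, 0.36) and Gart (an enzyme of purine synthesis, 0.36), where the spread of Slc7a5 itself was 0.91. Those most like Mtor were Ppt1 (a lysosomal thioesterase, 0.27), Ddx46 (an RNA helicase of splicing, 0.29) and Ago3 (an Argonaute protein, 0.31), with a spread of 0.54 for Mtor. These nearest profiles are given as a description.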

How the data were processed

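RNA of 11 libraries was analysed. The authors aligned reads with STAR (2.5.2a) and quantified Ensembl genes of GRCm38 with RSEM (1.3.0), strand by strand, and deposited TPM with 2 decimals. Their processing notes also name DESeq2 (1.18.1), for which counts are needed, not used here. TPM hold no depth, so no counting error can be given and precision comes from the spread between mice.

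Symbols came from GENCODE M21, which holds 48435 of 48795 genes. Comparisons used limma 3.58.1 (R 4.3.3, moderated statistics with a mean-variance trend) on log2(TPM + 1), a scale that understates changes of low genes. Genes averaging 1 TPM or more over the libraries compared were kept, with 2 groups per fit and Benjamini-Hochberg adjustment at 0.05 over all genes, two-sided. Single members and ratios were tested by exact permutation over libraries (70 or 35 groupings, two-sided; Python 3.11.15, numpy 2.4.6, pandas 2.3.3). The fit was tested on simulated data.

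Members and gene lists were chosen with earlier results of these data known. All members were named, with the pathway genes past the threshold in each comparison (at most 15), or the 5 with the lowest p where fewer than 5 passed, and the 3 genes nearest to Slc7a5 and to Mtor. Some genes that this rule takes are not reported here. Other settings tried were no filter, a filter at 5 TPM, 0.1 as pseudocount, median-ratio rescaling, ribosomal RNA, mitochondrial and immunoglobulin genes left out, no trend, 3 groups in 1 fit, the mouse as a block (mice 1, 3 and 4) and each library left out. By their titles, MBC and LZ libraries with equal numbers share a mouse. The correlation between their deviations from the group mean, over 13241 genes, was 0.00711, 0.0114 and -0.0463 in mice 1, 3 and 4.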

Additional observations from a re-analysis of the deposited data

Results flagged for a closer look

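In 44 groups of 4 libraries (each member, each named pathway gene and both ratios), a library lay far from the other three in 2, and about 1 group in 20 does so by chance. Deptor in Myc WT LZ mouse 1 was at 0.41 TPM, where the other three were at 0 to 0.03 TPM. Lamtor1 in Myc WT LZ mouse 4 was at 25.96 TPM, below the other three at 35.1 to 36.7 TPM and still above the highest Myc V394D library at 25.0 TPM.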

How the results depend on the processing

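In Myc V394D, 0 members and 0 pathway genes passed the adjusted threshold under all 15 alternatives, while the share of all genes that passed ranged from 0% to 0.169%, or 1.98% (254 genes) without Myc V394D replicate 5. In that setting 18 pathway genes had an unadjusted p under 0.05, against 10. In MBCs, the count of members that passed was 0 under all alternatives except without Myc WT MBC replicate 4 (2 of 9, Akt1s1 and Slc7a5, beside 21% of all genes), a range of 0 to 2 with libraries left out. The pathway genes that passed in MBCs numbered 5, against 1 with no filter (2.53% of all genes passed), 1 without a trend (7.48%), 8 by the median ratio (11.3%), 8 with 3 groups in 1 fit (13.1%), 0 under a replicate block by mouse (1.89%; this drops the unpaired Myc WT LZ replicate 2 too, and dropping it alone also gave 0), and 0 to 20 with libraries left out (2.6% to 21%). Members separate between genotypes went from 2 lower and 0 higher to 0 lower and 1 higher in both other scalings, and in MBCs from 1 higher and 1 lower to 0 higher and 2 lower by the median ratio and to 1 and 2 with ribosomal RNA, mitochondrial and immunoglobulin genes left out. These scalings of the separation were chosen after seeing the data. They moved the median of all genes in Myc V394D from -0.31 to -0.01 and -0.02, and that of the 9 members from -0.27 to 0.06 and 0.07.

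With libraries left out, the log2 ratio of Slc3a2 to Slc7a5 differed by -0.60 to -0.000934 in Myc V394D and 0.67 to 1.78 in MBCs, and that of Akt1s1 to Mtor by 0.26 to 1.07 and 0.21 to 2.88. With the mouse as a replicate block the 2 ratios differed by 1.38 and 1.09 in MBCs, the same values as without Myc WT LZ replicate 2 alone.

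Signs turned in members that had no call. In Myc V394D, Slc1a5 went to 0.0603 by the median ratio and 0.0729 with those genes left out, Slc38a2 to 0.00893 and 0.0215, and Slc3a2 to between -0.12 and 0.14 with libraries left out. In MBCs, leaving out libraries gave -0.38 to 0.36 for Mtor, -0.17 to 0.29 for Slc3a2, -0.15 to 0.20 for Slc1a5 and -0.0532 to 0.24 for Slc38a2. Slc1a5 was at 0.0199 by the median ratio, and with the block Slc3a2 was at -0.00312 and Slc1a5 at 0.11. The block changed no call among the members, while the pathway genes that passed in MBCs went from 5 to 0, as given above. The cause of the changes was not tested. Depth could not be examined in TPM.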
